A study of Mus musculus with 2 samples.

Results

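The 10 genes described here encode interferon-gamma-induced GTPases: Igtp, Irgm1, Irgm2, Iigp1, Tgtp1 and Tgtp2 of the immunity-related GTPase (IRG) family, and Gbp2, Gbp3, Gbp5 and Gbp7 of the guanylate-binding protein (GBP) family. They were taken by name and are 10 of the 28482 genes in the matrix. Their counts were followed across cell classes of the spinal cord of 4 C57BL/6 mice with experimental autoimmune encephalomyelitis (EAE), a model of multiple sclerosis in which T cells against myelin enter the central nervous system. CD45+ cells, which are leukocytes and microglia, were taken on day 15 after induction, tagged by mouse with hashtag antibodies, pooled and captured on 1 BD Rhapsody run. Untreated mice 1 and 2 carried the disease only, and inhibitor mice 1 and 2 carried the disease and received an inhibitor. The labels say neither which inhibitor it was, nor what it inhibits, nor how it was given, and state no age for the mice. The series title names STAP-1 mice too, but the labels call all 4 mice analysed here C57BL/6.

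Interferon-gamma is released mainly by T cells and NK cells. It binds a receptor made of Ifngr1 and Ifngr2, which signals through the kinases Jak1 and Jak2 to gamma-activated sites (GAS) in target promoters. The pathway also induces Irf1, a factor that binds interferon-stimulated response elements (ISRE), which type I interferon uses as well. IRG and GBP proteins are among the most strongly induced products of this pathway in the mouse. Effector members assemble on the vacuoles of intracellular parasites and bacteria and disrupt them, while Irgm1, Irgm2 and Igtp (Irgm3) sit on the cell's own membranes and hold the effectors inactive there. In the inflamed nervous system microglia respond to interferon-gamma from infiltrating T cells.

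The promoters are shown because the members share an induction route, and the letters of both elements lie close to the start of transcription. Of the 10 members, 9 matched the RefSeq promoter table of GRCm38.p6 by symbol. The 250 bases before each start were searched for the ISRE core, which is GAAA, any 2 bases and GAAA again (TTTC, any 2 bases and TTTC on the other strand), and for the GAS core TTCNNNGAA, which reads the same on both strands. The 9 members have 10 promoters in the table, since Gbp3 has 2. The ISRE letters were found in 9 of these 10 promoters, all but the second of Gbp3, and in 2.977% of all 32851 promoters. The GAS letters were found in 6 of the 10 (Igtp, Irgm2, Tgtp1, Tgtp2, Gbp5 and Gbp7) and in 7.02% of all promoters, and both together in the same 6 and in 0.3318% of all promoters. A match describes letters and is no evidence of binding. The stretches around the matches of 8 members follow, 5′ to 3′ on the gene's strand, with the matched letters in capitals.
Igtp (chr11:58199491-58199551, plus strand): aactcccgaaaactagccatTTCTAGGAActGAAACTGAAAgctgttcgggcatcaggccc
Irgm2 (chr11:58214882-58214942, plus strand): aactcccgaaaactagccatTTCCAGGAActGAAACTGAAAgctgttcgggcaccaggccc
Tgtp1 (chr11:48992294-48992354, minus strand): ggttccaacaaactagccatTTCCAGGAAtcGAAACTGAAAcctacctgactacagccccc
Tgtp2 (chr11:49064253-49064313, minus strand): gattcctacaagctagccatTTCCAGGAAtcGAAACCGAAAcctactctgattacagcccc
Irgm1 (chr11:48871421-48871470, minus strand): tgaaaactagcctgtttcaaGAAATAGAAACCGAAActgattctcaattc
Gbp2 (chr3:142620584-142620633, plus strand): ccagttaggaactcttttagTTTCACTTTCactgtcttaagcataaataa
Gbp3 (chr3:142559979-142560034, plus strand): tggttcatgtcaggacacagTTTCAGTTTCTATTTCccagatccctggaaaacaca
Gbp7 (chr3:142530210-142530312, plus strand): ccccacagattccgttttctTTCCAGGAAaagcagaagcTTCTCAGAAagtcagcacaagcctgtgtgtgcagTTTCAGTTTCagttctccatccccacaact
In Igtp, Irgm2, Tgtp1 and Tgtp2 a GAS match is followed, 2 bases later, by an ISRE match. The 2 neighbouring genes Igtp and Irgm2 have nearly the same letters over this stretch. Irgm1 and Gbp3 each hold 2 overlapping ISRE matches, and Gbp7 holds 2 GAS matches before its ISRE match.

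In RefSeq on GRCm38.p6 the GBP members lie side by side on chromosome 3 (Gbp5 at 142496934-142522344, Gbp7 at 142530336-142550151, Gbp3 at 142560016-142573213 and Gbp2 at 142620663-142638008). The IRG members of chromosome 11 lie in 2 places, with Irgm1 at 48865245-48871420, Tgtp1 at 48985329-48992246 and Tgtp2 at 49057196-49064212 in one, and Igtp at 58199556-58207592 and Irgm2 at 58214977-58222783 in the other. Tgtp1 and Tgtp2 are near-identical copies: their longest GENCODE transcripts are 99.33% identical, and 89.4% of the 50-base stretches of Tgtp1 occur in Tgtp2. Reads of one could have been counted for the other, so their values are not independent and each is uncertain. Igtp shares 11.1% of its stretches with Irgm2, whose annotated transcripts overlap it on the same strand, and Gbp3 shares 4.79% with Gbp7. Tgtp1 also overlaps Gm12185 on the same strand, and Tgtp1 and Tgtp2 overlap Olfr56 on the opposite strand. Whether strand was used in counting is unknown from the labels.

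After filtering, 19256 cells remained (4317 and 4551 from the untreated mice, 5473 and 4915 from the inhibitor mice), with 49312253 to 62192551 counts per mouse and a median of 8250 to 8618 counts per cell. Clustering without the members and without the listed interferon genes gave 11 classes with at least 30 cells in every mouse, each named as resembling a cell type ("-like") from its markers. The classes were 4 T cell subsets (CD4, CD8, gamma-delta and regulatory), NK cells, B lineage cells, neutrophils, monocytes or macrophages, microglia, plasmacytoid dendritic cells and other dendritic cells. The "-like" is left out below. In the CD8 class counts of Cd8a occurred in 38.9% of cells, of Cd4 in 15.6% and of Trdc in 11.2%. The CD4 class included a cluster of 300 cells led by Stmn1 and Pclaf, with Foxp3 in 22% and Cd8a in 17.3% of cells. Whether these counts came from cells of other subsets was not tested, so the T cell classes may not be pure. No barcode occurred in more than 1 mouse. Neutrophils were 24.3% and 19.0% of the cells of the untreated mice but 62.5% and 37.4% of those of the inhibitor mice, and T cells 44.8% and 53.9% against 18.3% and 36.8%. A value over all cells therefore follows the mix of classes, and whether either mix was in the tissue or arose in taking the cells was not tested. Levels below are CPM, the counts of a class in a mouse scaled to one common total. Genes differ in length and capture, so a level is compared between classes for 1 gene and not between genes.

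Counts of every member were found in all 11 classes, and the mean levels fell into a broad order. Transcripts of other cells were also present: counts of the T cell receptor complex occurred in 50.3% to 79.5% of microglia, 65.4% to 72.6% of other dendritic cells, 44.9% to 48.2% of neutrophils and 36.3% to 39.7% of B lineage cells. The part of such RNA in the levels by class was not tested. The median rank of a class over the 10 members, from the mean of 4 mice, was 2 for microglia and for regulatory T cells, 2.5 for other dendritic cells and 3 for gamma-delta T cells. CD8 and CD4 T cells followed at 5 and 5.5, then NK cells at 7, monocytes or macrophages at 8.5, B lineage cells at 9 and plasmacytoid dendritic cells at 10. Neutrophils came last at 11 and were among the lowest 3 classes for 9 of the 10 members. The monocyte or macrophage class was 1 cluster, led by Prtn3, F13a1 and Gstm1. Of the 16 markers of this class, 8 were counted as detected in it. Whether it holds the macrophages that enter the spinal cord in EAE was not tested, so its rank is not a statement about them. The members did not all follow 1 order: the IRG genes led in T cell classes or microglia, and the class with the highest mean differed between members. The 2 untreated and the 2 inhibitor mice all enter these means.

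**Figure D1:**
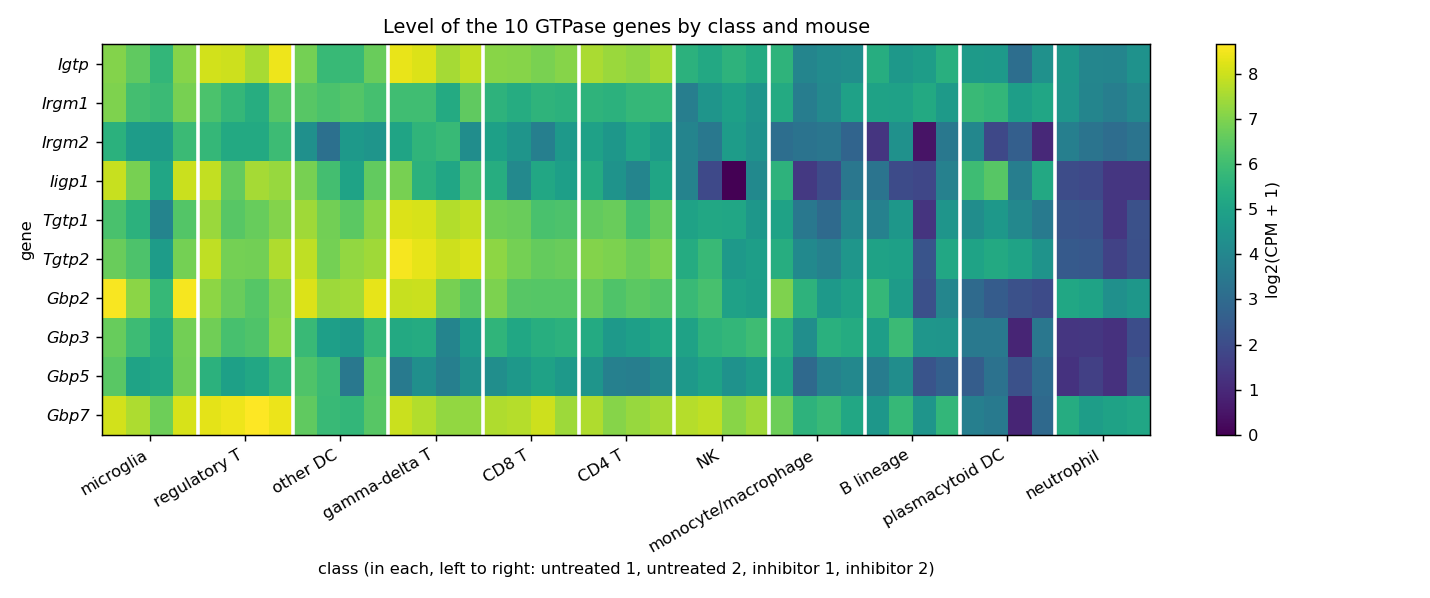
Level of each member (rows) as log2(CPM + 1), with 4 columns per class for untreated mice 1 and 2 and inhibitor mice 1 and 2, from left to right. Microglia, regulatory T cells, other dendritic cells and gamma-delta T cells hold the highest values, and neutrophils the lowest for most members.

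The regulatory IRG genes were highest in T cell classes and microglia. Igtp, which guards membranes of the endoplasmic reticulum and lipid droplets, stood at 264 ± 67.9 CPM in regulatory T cells (SD, n = 4) and 259 ± 66.0 in gamma-delta T cells, which overlapped. CD4 T cells followed at 171 ± 18.8, apart from CD8 T cells at 132 ± 8.15, meaning that the lowest CD4 value lay above the highest CD8 value. Microglia held 103 ± 38.7, other dendritic cells 81.9 ± 30.2 and neutrophils 18.2 ± 4.35 CPM of Igtp. Irgm1, needed for resistance to mycobacteria and for autophagy, was highest in microglia at 92.7 ± 34.4 CPM and lowest in neutrophils at 16.1 ± 4.46. No 2 neighbours in the order of Irgm1 were apart. Irgm2, a regulator on Golgi membranes, ranged from 47.0 ± 11.7 CPM in regulatory T cells to 6.03 ± 6.37 in plasmacytoid dendritic cells, again with overlap at each step.

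The effector IRG genes differed more between classes. Tgtp1, a T cell-specific GTPase found first in T cells, reached 254 ± 44.9 CPM in gamma-delta T cells, apart from other dendritic cells at 129 ± 36.0. Its near-identical copy Tgtp2 had the same 2 leading classes, at 311 ± 50.3 and 166 ± 46.3 CPM. In neutrophils Tgtp1 was at 3.15 ± 1.07 and Tgtp2 at 3.58 ± 1.02 CPM. Iigp1 (Irga6), an effector that coats the vacuole of Toxoplasma, lies on chromosome 18 at 60373616-60392634 (GRCm38.p6, RefSeq). Its level was 167 ± 57.5 CPM in regulatory T cells and 161 ± 105 in microglia, which overlapped widely. In neutrophils Iigp1 was at 2.23 ± 0.761 CPM, the lowest of the 11 classes.

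Among the GBP genes, Gbp7 was highest in regulatory T cells at 353 ± 37.1 CPM, apart from microglia at 213 ± 80.9. Microglia, CD8 T cells, gamma-delta T cells, NK cells and CD4 T cells followed for Gbp7 in overlapping steps down to 167 ± 25.6 in CD4 T cells, which were apart from other dendritic cells at 71.9 ± 20.3. Gbp2, which takes part in lysing vacuoles of bacteria and parasites, had a mean of 240 CPM both in microglia (SD 167) and in other dendritic cells (SD 80.0). The larger SD in microglia came from the mice, as described below. Gbp5, known for promoting Nlrp3 inflammasome assembly, was likewise highest in microglia at 65.2 ± 37.8 and other dendritic cells at 56.5 ± 32.2 CPM, and at 15.4 ± 4.57 in gamma-delta T cells. Gbp3 was highest in regulatory T cells at 98.9 ± 32.3 CPM and lowest in neutrophils at 1.91 ± 0.802. Gamma-delta T cells thus ranked first for Tgtp1 and Tgtp2 and ninth of 11 for Gbp3.

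Classes made of several clusters were not uniform. Among neutrophil clusters, the one led by Il1b held 79.8 CPM of Gbp2 as the mean of 4 mice, and its mice held 77.9 and 128 (untreated) and 54.3 and 58.9 (inhibitor). The cluster led by the granule genes Ltf, Ngp and Camp held a mean of 8.15 CPM. No mouse of the granule cluster, at 6.26 to 9.61 CPM, reached the Il1b cluster. Within CD4 T cells the cluster led by Tcf7 held 56.6 CPM of Iigp1, and the cluster with the highest mean Ifng, at 894 CPM, held 6.37 CPM of Iigp1 and 41.1 of Gbp2. In B lineage cells Gbp2 stood at 87.9 and 27.9 (untreated) and 1.44 and 22.8 CPM (inhibitor) in the Ms4a1 cluster and at 1.92, 9.53, 4.02 and 9.97 in the Vpreb3 cluster, so the order of the clusters was turned in inhibitor mouse 1. These cluster values are descriptions, since the clusters were made from the same cells, although not from these genes.

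Per cell, few members were seen at once. After each cell was thinned to 2000 counts, a microglial cell held a mean of 1.79 and 1.07 of the 10 members in untreated mice 1 and 2, and 0.587 and 1.74 in inhibitor mice 1 and 2. The corresponding means were 1.81, 1.28, 1.40 and 1.73 in regulatory T cells, 1.85, 1.48, 0.959 and 1.43 in gamma-delta T cells and 1.08, 0.806, 0.794 and 0.972 in CD4 T cells. In neutrophils they were 0.206, 0.184, 0.152 and 0.176, and 83.3% to 86.4% of neutrophils held no count of any member at this depth. Thinned Gbp2 was seen in 35.4% and 14.0% of microglia of the untreated mice and in 6.10% and 29.0% of those of the inhibitor mice. Neutrophils, for comparison, showed Gbp2 in 4.28%, 3.01%, 2.66% and 3.05% of thinned cells. Unthinned, the microglial shares for Gbp2 were 56.7%, 34.2%, 14.5% and 51.3%. No class here is known to lack these genes, so free RNA in the neutrophil values cannot be told apart from low expression.

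**Figure D2:**
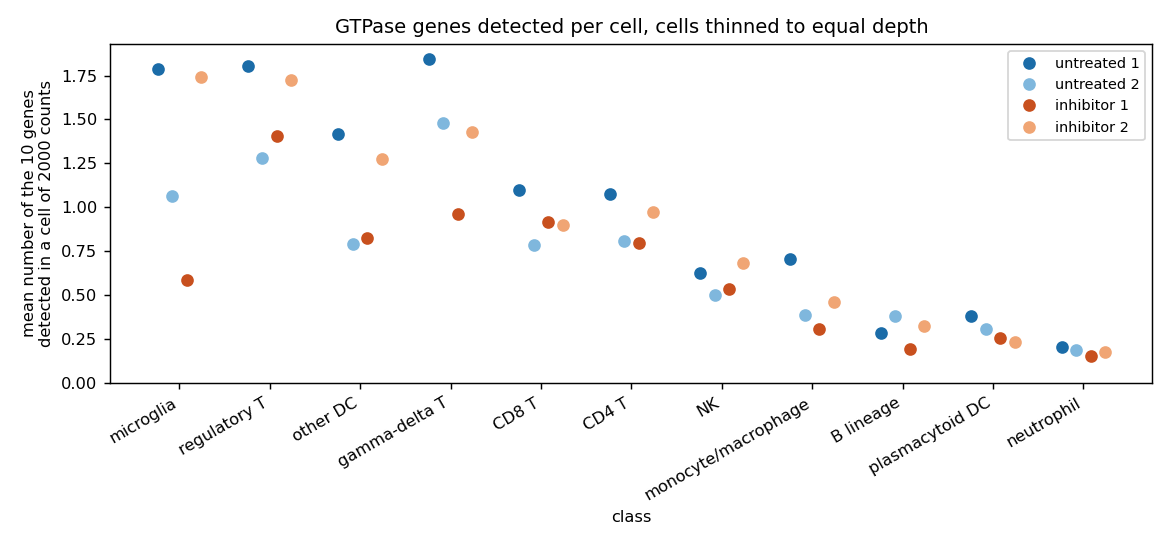
Mean number of the 10 members detected per cell after thinning to 2000 counts, by class, with 1 point per mouse. Microglia span 0.587 to 1.79, with inhibitor mouse 1 lowest, while all 4 mice lie between 0.152 and 0.206 in neutrophils.

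The members varied together over the 44 points formed by 11 classes in 4 mice. Pearson correlations of log2(CPM + 1) between members ran from 0.370 for Irgm1 and Gbp7 to 0.987 for Tgtp1 and Tgtp2, whose reads may be shared. The points share 1 run and 4 animals, so these are descriptions. The genes whose pattern over the same points was most like the mean of the members were Zbp1 (0.922), a sensor of nucleic acids in Z form, and Gm12250 (0.920), another IRG gene. Gm29094, Xaf1, Bcl2a1b, Rgs1, Parp14, Jak3, Bcl2a1d and Ifi213 followed at 0.902 to 0.834, among 9402 genes with a mean of at least 10 CPM. Within the pathway, correlations with the members' mean were 0.82 for Ifngr1, 0.76 for Socs1 (the feedback inhibitor of Jak kinases), 0.60 for Ifng and 0.56 for Irf1. They were 0.66 for Isg15 and 0.55 for Ifit3, which type I interferon induces strongly, but −0.07 for Irf8 and −0.24 for Ifngr2.

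Within the inhibitor comparison, no member was called by edgeR's quasi-likelihood test at an adjusted p under 0.05 in the fit over all cells or in any class. Over all cells the 10 members all had a negative log2 fold of inhibitor against untreated, with a median of −0.52 beside −0.03 for all 21172 genes tested. Both inhibitor mice lay below both untreated mice for 3 of the 10 members, against 39.8% of all genes tested, and 0 members had an unadjusted p under 0.05, against 10.1% of all genes. Leaving out neutrophils, B lineage and erythroid cells, the median was −0.28. Tgtp1 over all cells stood at 73.7 and 63.3 CPM in the untreated mice and 15.5 and 51.4 in the inhibitor mice, without overlap (log2 fold −0.89 ± 0.45 SE, adjusted p = 0.548). Igtp stood at 117 and 97.2 against 36.5 and 90.9 CPM (−0.59 ± 0.35, adjusted p = 0.589). Inhibitor mouse 1, with the largest share of neutrophils, had the lowest value of the 4 mice for all 10 members. Without inhibitor mouse 2, 4 members were called lower (Igtp, Iigp1, Tgtp1 and Tgtp2), as were 3.47% of all genes, and the median was −1.33. Without inhibitor mouse 1 it was −0.15.

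**Figure D3:**
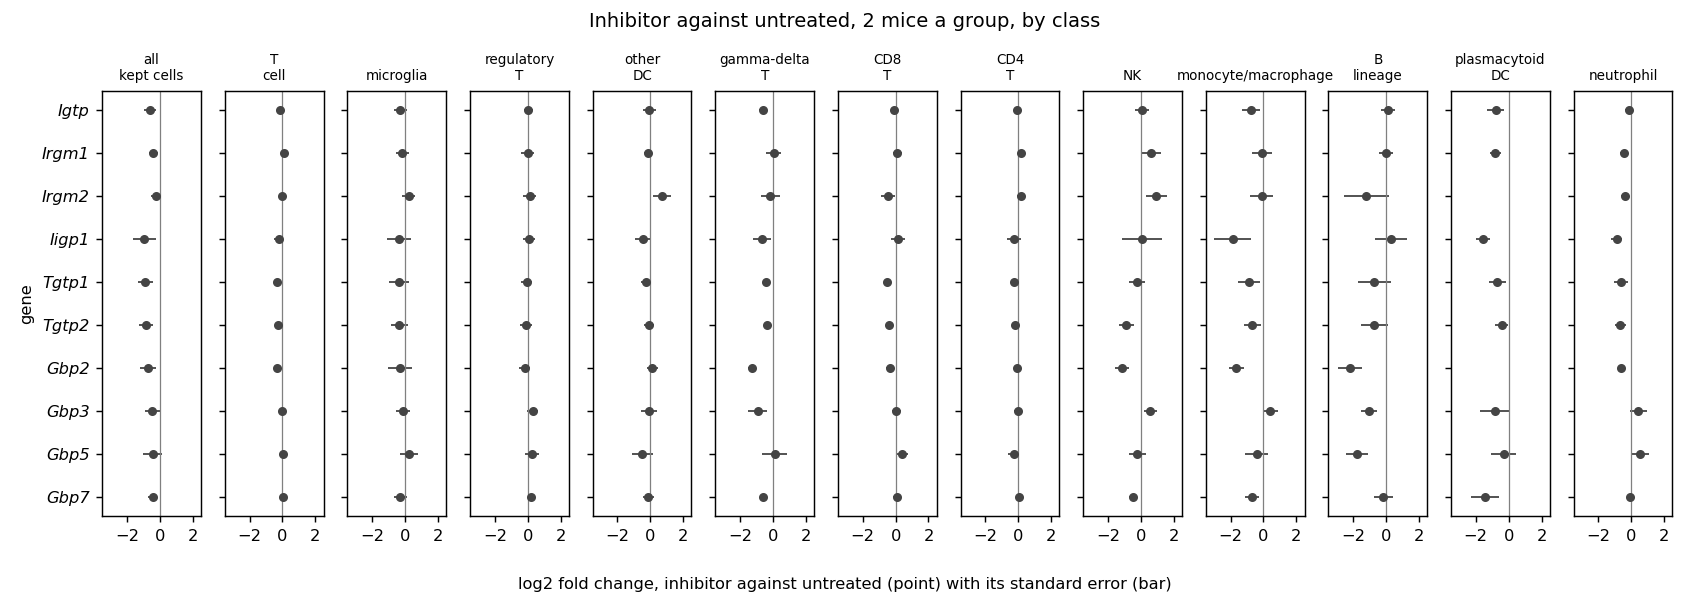
log2 fold of inhibitor against untreated mice (points) with 1 SE (lines) for each member, by fit, from edgeR on 2 against 2 mice. Most points lie below 0, none has an adjusted p under 0.05, and Irgm2 and Gbp2 have no point in plasmacytoid dendritic cells because they did not pass the filter on low counts.

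No gene at all was called in 10 of these 13 fits (0.0% of the genes tested), namely over all cells and in T cells, regulatory and gamma-delta T cells, B lineage cells, neutrophils, monocytes or macrophages, microglia and both dendritic cell classes. In the other three, 1 gene was called in CD4 T cells (0.00647%), 4 in CD8 T cells (0.0349%) and 1 in NK cells (0.0102%), none of them a member. Labels name separate mice, 2 per group, and with so few an unadjusted p is given below only to order the members. DESeq2 called no member either, in any of the 13 fits. It did call other genes, in every fit except those of regulatory T cells and plasmacytoid dendritic cells. The number of genes it called was largest over all cells. It was 131 of 15115 in microglia and 48 of 5298 in B lineage cells.

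In microglia the mice of 1 group differed more than the groups. Gbp2 stood at 385 and 142 CPM in the untreated mice and at 55.1 and 376 in the inhibitor mice. Iigp1 stood at 243 and 116 against 34.0 and 250 CPM. For both genes untreated mouse 1 and inhibitor mouse 2 were high and inhibitor mouse 1 was low, so the groups overlapped. Igtp repeated this with 133 and 91.8 against 52.7 and 134 CPM, and Gbp7 with 269 and 194 against 106 and 282. The groups overlapped for 10 of the 10 members. Background shares in microglia were 19.5% of genes with both inhibitor mice lower and 9.91% with an unadjusted p under 0.05, and 0 members met either. Fitted folds ran from −0.36 ± 0.72 for Iigp1 to 0.26 ± 0.54 for Gbp5. The standard deviation within groups of the mean log2 level of the 10 members was 0.994 in microglia, 0.815 in monocytes or macrophages, 0.753 in B lineage cells and 0.566 in other dendritic cells, and 0.133 to 0.402 in the other fitted classes. Without inhibitor mouse 2, 4 members were called lower in microglia (Gbp2, Iigp1, Tgtp1 and Tgtp2), where 1.2% of all genes were, and the median fold was −1.16, while without inhibitor mouse 1 it was 0.41.

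**Figure D4:**
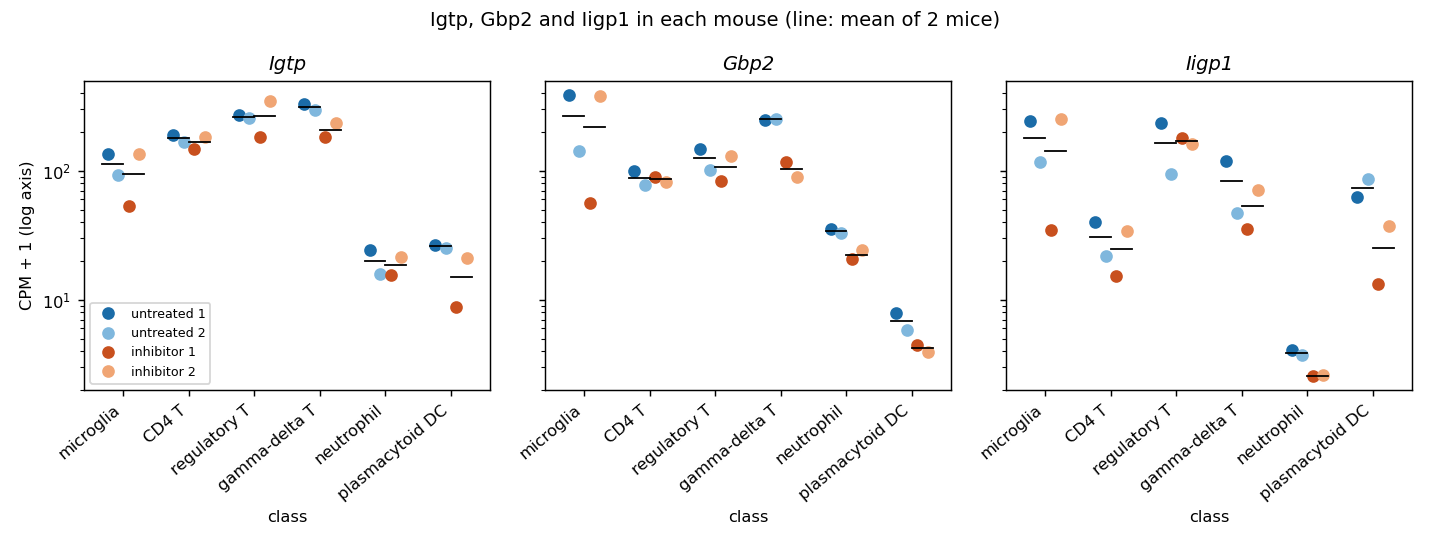
Level of Igtp, Gbp2 and Iigp1 in 6 classes as CPM + 1 on a log axis, with 1 point per mouse and a line at the mean of each group of 2 mice. In microglia inhibitor mouse 1 is the lowest and inhibitor mouse 2 lies near untreated mouse 1, while in gamma-delta T cells both inhibitor mice lie below both untreated mice for Gbp2, at 116 and 88.0 against 247 and 252 CPM.

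Other transcripts also differed between the mice in microglia. The summed level of 15 T cell markers was 1774 and 4276 CPM in the untreated mice and 483 and 949 in the inhibitor mice, and each of the 15 genes was lower in both inhibitor mice. The microglial marker list was higher in both inhibitor mice for 13 of 14 genes, at 21501 and 15015 against 29109 and 23306 CPM. Mitochondrial transcripts were lower for 12 of 13. The part of these in the members' values was not tested. In microglia without a count of the T cell receptor complex (186, 66, 171 and 170 cells) Gbp2 was at 372 and 166 against 88.4 and 344 CPM and Iigp1 at 197 and 74.6 against 45.0 and 241. Inhibitor mouse 1 held the lowest value of both genes there too. The median fold of the members was −0.14 in those cells, with 6 of 10 negative, beside −0.29 with 8 of 10 negative in all microglia. Ifng, the ligand, was at 58.4 and 123 CPM in microglia of the untreated mice and at 5.27 and 22.4 in those of the inhibitor mice (−2.69 ± 0.58, adjusted p = 0.305), and it moved with the T cell markers.

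T cells together showed small differences. Tgtp1 stood at 119 and 114 CPM in the untreated mice and 81.5 and 100 in the inhibitor mice, without overlap (−0.35 ± 0.13, unadjusted p = 0.0275), and Tgtp2 at 163 and 138 against 114 and 130 (−0.29 ± 0.13, unadjusted p = 0.0471). Both inhibitor mice lay below both untreated mice for 3 of 10 members in T cells, where 16.5% of genes did, and 2 of 10 had an unadjusted p under 0.05, where 3.98% did. Those 2, Tgtp1 and Tgtp2, may share reads, so they are not 2 independent values, here or in the counts of members of other fits. The median fold of the 10 members was −0.10, and 0.14 without untreated mouse 1. The neutrophil marker sum was higher in T cells of both inhibitor mice (1015 and 866 against 1421 and 1248 CPM), mitochondrial transcripts were lower for 12 of 13 genes (36484 and 36944 against 35106 and 33858 CPM), and the sums of microglial and B lineage markers were lower. Their part in these values was not tested. Ifng itself was at 307.7 and 283 against 290 and 343 CPM in T cells. Among CD4 T cells 1 of 10 members was lower and 1 higher in both inhibitor mice, against 15.8% and 15.3% of genes, and 0 had an unadjusted p under 0.05, against 3.51%. In CD8 T cells 4 were lower and 1 higher, against 17.8% in each direction, and Tgtp1 (108 and 103 against 70.9 and 75.0 CPM, −0.54 ± 0.19) was the 1 member with an unadjusted p under 0.05, against 6.27% of genes. In regulatory T cells, a leading class for many members, the groups overlapped for all 10 and no unadjusted p was under 0.05, where 17.7% of genes were lower and 3.99% had such a p.

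Gamma-delta T cells had the largest difference in Gbp2 relative to its error. Gbp2 there stood at 247 and 252 CPM in the untreated mice and 116 and 88.0 in the inhibitor mice. The mice of a group lay close together and the groups did not overlap (−1.29 ± 0.25, unadjusted p = 0.000562, adjusted p = 0.976 over 8769 genes). The adjusted p of Gbp2 was 0.00404 without a filter on low counts, 0.00186 without inhibitor mouse 1 and 0.0171 without inhibitor mouse 2, where the remaining inhibitor mouse is assumed to vary like the others. In these 3 fits 0.036%, 1.35% and 0.618% of all genes were called lower. Igtp stood at 331 and 292 against 181 and 232 CPM (−0.60 ± 0.22) and Gbp7 at 249 and 201 against 152 and 151 (−0.58 ± 0.24). In all, 6 of 10 members were lower in both inhibitor mice, against 18.0% of genes, and 3 had an unadjusted p under 0.05, against 5.04%. Irgm1, at 63.1 and 62.9 against 38.7 and 93.4 CPM, and Irgm2, at 32.6 and 49.8 against 55.8 and 18.0, overlapped between the groups. The class held 155, 209, 74 and 54 cells. Erythroid markers summed to 247 and 98.0 CPM in the untreated mice and 6.20 and 14.4 in the inhibitor mice, and T cell markers overlapped; the part of erythroid RNA in the members' values was not tested.

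In neutrophils Gbp2 stood at 34.6 and 31.8 CPM against 19.6 and 23.2, without overlap (−0.65 ± 0.16, unadjusted p = 0.00376, adjusted p = 0.985). Iigp1 was at 3.04 and 2.72 against 1.56 and 1.59 CPM (−0.88 ± 0.34, unadjusted p = 0.0343). With doublet calls kept, the fold of Iigp1 turned to 0.11, that of Gbp2 was −0.37 (unadjusted p = 0.224) and no member had an unadjusted p under 0.05. With a stricter cell filter the fold of Gbp2 was −0.18 (unadjusted p = 0.572). Gbp7, at 40.4 and 27.2 against 30.5 and 34.3 CPM, overlapped between the groups. Of the 10 members 4 were lower in both inhibitor mice, against 15.5% of genes, and 2 had an unadjusted p under 0.05, against 4.99%. All 13 mitochondrial transcripts were lower in neutrophils of both inhibitor mice, 12 of them with an unadjusted p under 0.05, and their part in the members' values was not tested. In neutrophils without a count of the T cell receptor complex, Gbp2 was at 45.3 and 65.9 against 19.4 and 29.0 CPM. Iigp1 overlapped between the groups there, at 1.36 and 3.02 against 1.46 and 2.29. The median fold of the members in those cells was −0.30, with 9 of 10 negative, beside −0.41 in all neutrophils. In the Il1b cluster of neutrophils Gbp2 lay lower in both inhibitor mice (values above), while the groups overlapped in the other 4 clusters, for example at 39.3 and 16.1 against 15.9 and 24.4 CPM in the largest and at 6.26 and 8.52 against 9.61 and 8.22 in the granule cluster.

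In plasmacytoid dendritic cells both inhibitor mice lay lower for 8 of 10 members. One of these, Gbp2, did not pass the filter on low counts, and neither did Irgm2. Among genes that passed, 16.5% were lower, as were 7 of the 8 members that passed. The class held 103, 350, 79 and 139 cells, so some of these values rest on few counts. The lowest values of Gbp3 and Gbp7, both 0.871 CPM, came from inhibitor mouse 1, where 3 counts equal 2.61 CPM. Iigp1 stood at 61.6 and 84.6 CPM against 12.2 and 36.1 (−1.56 ± 0.44, unadjusted p = 0.00559) and Irgm1 at 57.4 and 52.0 against 27.9 and 33.6 (−0.82 ± 0.33, unadjusted p = 0.031), the 2 members with such a p, against 4.32% of genes. Both had an adjusted p of 0.998, while that of Iigp1 was 0.0205 without a filter on low counts and 0.000178 without inhibitor mouse 2, where 0.0686% and 0.467% of all genes were called lower. The fold of Iigp1 was −2.60 without inhibitor mouse 2 and −1.05 without inhibitor mouse 1. T cell markers overlapped between the groups in this class (333 and 331 against 505 and 274 CPM). Iigp1 stayed lower in both inhibitor mice among cells without a count of the T cell receptor complex, at 47.7 and 38.8 against 9.24 and 16.1 CPM, while the median fold over the 4 members tested there was −0.14. Other dendritic cells had 0 members lower and 1 higher in both inhibitor mice, where 16.2% and 16.8% of genes were, and 0 with an unadjusted p under 0.05, where 3.41% were. Gbp2 there was at 293 and 166 against 176 and 323 CPM.

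B lineage cells held Gbp2 at 53.9 and 25.7 CPM in the untreated and 3.35 and 14.8 in the inhibitor mice (−2.20 ± 0.71, adjusted p = 0.563), and Gbp5 at 11.4 and 18.1 against 3.72 and 5.25 (−1.78 ± 0.68, adjusted p = 0.590). The groups did not overlap for either gene. Gbp2 was called lower without a filter on low counts (adjusted p = 0.028) and without untreated mouse 2 (adjusted p = 0.0212), and its fold was −3.56 without inhibitor mouse 2. Gbp3 was called lower without untreated mouse 1 (adjusted p = 0.0309). In these fits 0.368%, 0.201% and 2.44% of all genes were called lower. Gbp2 and Gbp5, 2 of 10 members, had an unadjusted p under 0.05, against 7.96% of genes, and 3 were lower in both inhibitor mice, against 17.8%. The Ms4a1 cluster made up 62.8% and 84.0% of this class in the untreated mice but 31.6% and 43.9% in the inhibitor mice. Within that cluster alone the median fold of the members was 0.12, with 4 of 9 tested negative, beside −0.72 for the class. Gbp2 (values given with the clusters above) was still lower in both inhibitor mice there. So was Gbp5, at 18.8 and 18.0 against 5.75 and 12.7 CPM. Neutrophil markers were higher in B lineage cells of both inhibitor mice (636 and 1980 against 3529 and 2722 CPM, 11 of 17 genes). T cell markers were lower (678 and 886 against 479 and 660), and the part of both in these values was not tested. In B lineage cells without a count of the T cell receptor complex, Gbp2 was at 41.2 and 36.8 against 1.72 and 15.4 CPM. Gbp5 was at 6.64 and 11.1 against 6.02 and 4.75 there. The median fold over the 7 members tested in those cells was −0.98, with 7 of 7 negative.

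In monocytes or macrophages Gbp2 was at 127 and 47.7 against 24.2 and 31.0 CPM (−1.64 ± 0.45, unadjusted p = 0.00447, adjusted p = 0.999), the 1 member of 10 lower in both inhibitor mice and with such a p, against 13.9% and 3.84% of genes. Untreated mouse 1 held the high value, and without it the fold was −0.85. The T cell marker sum was also lower in this class (631 and 765 against 193 and 187 CPM), and its part in the value was not tested. In NK cells 3 members were lower and 3 higher in both inhibitor mice, against 18.3% and 16.2% of genes, and Gbp2 (57.5 and 69.9 against 30.4 and 27.3 CPM, −1.14 ± 0.41) was the 1 member with an unadjusted p under 0.05, against 4.35%. NK cells of inhibitor mouse 1 also carried 12140 CPM of erythroid and 9509 CPM of neutrophil markers, where the other mice had at most 733 and 1660, and Iigp1 had 0 counts there, which allows up to 3.80 CPM.

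**Figure D5:**
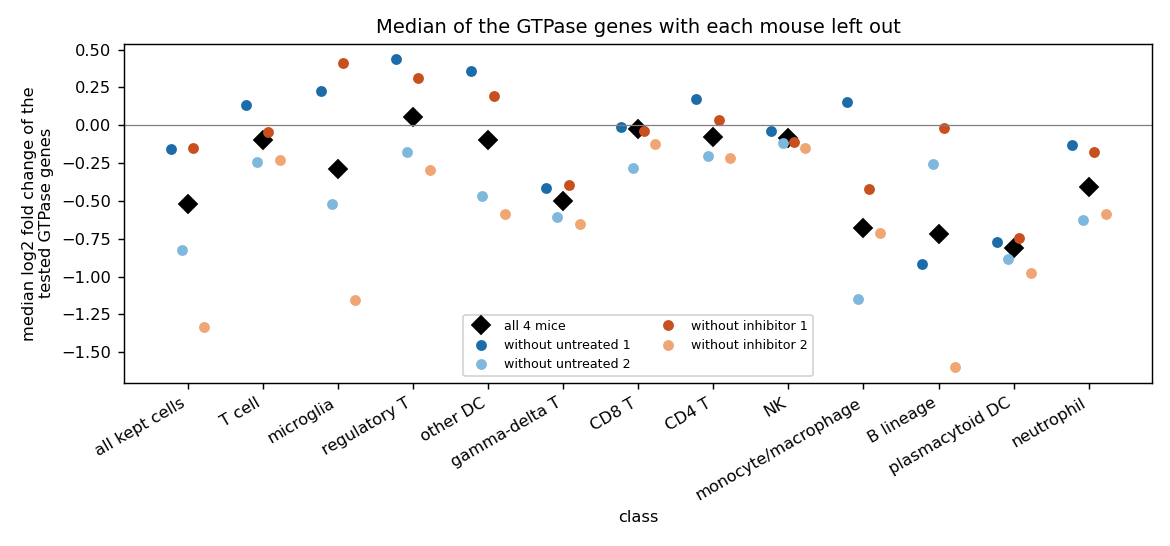
Median log2 fold of the members by fit, with all 4 mice and with each mouse left out in turn. The median stays below 0 for gamma-delta T cells (−0.65 to −0.40) and plasmacytoid dendritic cells (−0.98 to −0.74), and lies on both sides of 0 for microglia (−1.16 to 0.41).

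Whether the inhibitor difference itself differed between classes was tested in 1 model of T cells, neutrophils and microglia with the mouse as a block. None of the 10 members was called for neutrophils against T cells or for microglia against T cells (0.0% of genes called in each), and none had an unadjusted p under 0.05, where 3.14% and 10.4% of genes had. The median difference of the members' folds was −0.31 for neutrophils and −0.35 for microglia, beside 0.08 and −0.09 over all genes. Without inhibitor mouse 2 the microglial median was −1.22, and without inhibitor mouse 1 it was 0.49.

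The other genes of the pathway were not called in any class either. Over all cells 12 of 14 genes of ligand, receptor and signalling had a negative fold (median −0.44). Socs1 was the 1 of them with an unadjusted p under 0.05 (−0.59 ± 0.23), where 10.1% of all genes had such a p. Nlrc5, the activator of MHC class I genes, was at −0.57 ± 0.25. Among 20 other interferon-inducible GTPases 19 were negative (median −0.55), with Ifi47, a further IRG gene, at −0.70 ± 0.25 and Gbp8 at −0.85 ± 0.35. MHC class I processing genes were negative in 13 of 14 (median −0.25), while autophagy conjugation genes, which IRG proteins depend on for their placement, were positive in 7 of 10 (median 0.36, Atg7 at 0.95 ± 0.24). Interferon-gamma effectors went both ways, with 9 of 14 tested negative (median −0.36). Of these 14, 2 had an unadjusted p under 0.05, against 10.1% of all genes. Both were higher: Acod1, the enzyme that makes itaconate, at 1.13 ± 0.22, and Upp1 at 1.17 ± 0.43. Inflammasome genes were positive in 6 of 8 (median 0.25), with Il1b at 1.17 ± 0.32. Genes that type I interferon mainly induces were negative in 11 of 20 (median −0.08). The median of all genes was −0.03. These folds over all cells also follow the mix of classes, which differed between the groups, and the part of the mix in them was not tested.

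Within classes the medians varied. That of the other GTPases was −1.14 in monocytes or macrophages and −0.47 in other dendritic cells, and that of the type I interferon list −0.56 in NK cells. The signalling list had −0.72 in B lineage cells, where 5 of 13 tested genes had an unadjusted p under 0.05, against 7.96% of all genes. Interferon-gamma effectors had −1.33 in plasmacytoid dendritic cells, −0.78 in monocytes or macrophages and 0.21 in regulatory T cells. In plasmacytoid dendritic cells 4 of the 5 effectors tested had an unadjusted p under 0.05, all lower, against 4.32% of all genes. In neutrophils the other GTPases had a median of −0.03 over 18 tested genes. Of these, 3 had an unadjusted p under 0.05, against 4.99% of all genes. All 3 were lower: Gbp4 (−1.08 ± 0.32), Gbp6 (−1.04 ± 0.43) and Gbp8. The signalling list had a median of −0.07 in neutrophils and −0.08 in microglia. The autophagy list had a median of −0.003 in neutrophils, 0.016 in T cells and −0.12 in microglia. For MHC class I processing the medians of these classes were 0.10, −0.0009 and −0.15, and for the inflammasome list 0.043, −0.13 and 0.13. Il1b was at 0.11 ± 0.11 in neutrophils. In microglia Ifi47 was at −1.51 ± 0.44 (unadjusted p = 0.00857), and Nlrp3, the inflammasome sensor, at 0.91 ± 0.22 (unadjusted p = 0.00274). In T cells the receptor chain Ifngr2 was at −0.49 ± 0.19 and Ifih1, a sensor of viral RNA, at 0.65 ± 0.17, with adjusted p over 0.99 for both.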

How the data were processed

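CD45+ spinal cord cells of 4 mice were profiled by TAS-Seq on BD Rhapsody, with about 28678 cells loaded per the labels' protocols. The deposited matrix holds whole-number counts of molecules per gene and cell made by the authors. The genome build is GRCm38, per the submitters' processing notes, while the aligner, the counter and any use of strand are each not given in the sources used here. Of 25461 columns, 3943 marked as hashtag doublets were left out, as were 1014 cells over 20% mitochondrial counts and 1248 (6.09%) with the highest share of hashtag doublets among their 50 nearest cells, the number of same-mouse doublets expected from the hashtags. The cells left out by this doublet score were 8.60% and 8.17% of those of untreated mice 1 and 2, and 3.20% and 4.95% of those of inhibitor mice 1 and 2. Cells were clustered (scanpy 1.11.5, Leiden, resolution 1) without 111 member and interferon-list genes, and named from fixed markers. The hashtag library, which belongs to no group, was not analysed here.

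Counts were summed per mouse and class and tested with edgeR 4.0.16 (TMM, filterByExpr, quasi-likelihood test, Benjamini-Hochberg over all genes of a fit, threshold 0.05); the script was tested on simulated data. An SE is the absolute log2 fold divided by the square root of F. DESeq2 1.42.0, other filters, other clusterings and leaving out each mouse were alternatives; cells without T cell receptor complex counts and the largest cluster alone were added after seeing the data. Named genes were all 10 members, up to 4 genes per list with the smallest p in 4 fits, and the 10 genes most like the members. Members and lists were chosen with earlier results of these data known.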

Additional observations from a re-analysis of the deposited data

Results flagged for a closer look

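Differences between classes in the direction of the inhibitor comparison were seen for 3 members, in each case because both inhibitor mice lay above both untreated mice in one class and below both in another. These differences were not tested. Within the classes concerned, 15.3% to 17.8% of all genes lay higher in both inhibitor mice and 16.5% to 18.0% lower. How many of all genes lay higher in one class and lower in another was not counted, so the 3 members stand without a background. The log2 fold of Irgm1 was 0.18 in CD4 T cells and 0.61 in NK cells but −0.82 in plasmacytoid dendritic cells. For Gbp3 it was 0.59 in NK cells but −0.92 in gamma-delta T cells, −1.04 in B lineage cells and −0.86 in plasmacytoid dendritic cells. For Gbp5 it was 0.40 in CD8 T cells and −1.78 in B lineage cells. None of these folds had an adjusted p under 0.05 in edgeR's test. NK cells of inhibitor mouse 1 carried erythroid and neutrophil transcripts, and the B lineage class differed in its make-up between the groups, as given in the report.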

How the results depend on the processing

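With 2 mice per group, single mice moved several values. Over all cells, leaving out each mouse gave 0 to 4 called members and a median fold of −1.33 to −0.15. The ranges of the median were −0.24 to 0.14 in T cells, −0.22 to 0.17 in CD4 T cells, −0.30 to 0.44 in regulatory T cells, −0.59 to 0.36 in other dendritic cells, −1.16 to 0.41 in microglia, −0.28 to −0.012 in CD8 T cells, −0.65 to −0.40 in gamma-delta T cells, −1.60 to −0.021 in B lineage cells, −0.63 to −0.13 in neutrophils, −1.15 to 0.15 in monocytes or macrophages, and −0.42 to 0.0027 for neutrophils against T cells. Called members ranged from 0 to 4 in microglia and from 0 to 1 in gamma-delta T cells, B lineage cells and plasmacytoid dendritic cells. The report names each, with the share of all genes called lower in the same fit.

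Without the filter on low counts 1 member was called in gamma-delta T cells (Gbp2), in B lineage cells (Gbp2, adjusted p = 0.028) and in plasmacytoid dendritic cells (Iigp1), where 0.036%, 0.368% and 0.0686% of all genes were called lower. The cause was not tested. The CD8 median, −0.03 as reported here, moved to −0.43 with doublet calls kept, −0.60 with a stricter cell filter, 0.20 with cells thinned, −0.73 at resolution 0.5 and −0.34 with interferon genes kept for clustering. Monocytes or macrophages had no fit at resolution 0.5 or with the stricter cell filter, and other dendritic cells had none at resolution 0.5. Thinning moved the gamma-delta median to −0.82. The largest B lineage cluster alone gave 0.12, and plasmacytoid dendritic cells without T cell receptor complex counts −0.14. The fold of Iigp1 in neutrophils reversed to 0.11 with doublet calls kept. The level of each member in its highest class stayed within the spread between mice in all 30 values from other settings (cells thinned, doublet calls kept, each cell weighted equally), although another class took the highest mean in 8 of them (Igtp, Irgm2, Gbp2 and Gbp5).

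Mice with the same replicate number share only the number: correlations of their deviations were −0.0593 to 0.0286. With a replicate block 0 members were called in every fit, while up to 64 genes were called, in microglia.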
